A study of Mus musculus with 12 samples.

Results

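The subunits of the respiratory chain and of ATP synthase that are encoded in the nucleus were followed across 4 sorted fractions of the mouse embryo. The members are all genes whose name in the scanner files matches the families Ndufa, Ndufb, Ndufc, Ndufs, Ndufv, Sdh, Uqcr, Cox4 to Cox8 or Atp5. This gave 80 of the 27549 gene names on the array. They are 35 genes of complex I, 4 of complex II, 7 of complex III, 17 of complex IV and 15 of complex V, with 2 genes whose old names fit the pattern but that are no subunits, Cox4nb (now Emc8) and Atp5s (now Dmac2l). Ndufa4 is counted with complex I by its name, although its protein is now placed in complex IV. Of the 80 members, 79 passed the filter on dim probes and were tested, and 68 were well above background on all 12 arrays. Cox8c was not tested, since it was well above background on 3 of 12 arrays.

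Complexes I to IV of the inner mitochondrial membrane pass electrons from NADH and succinate to oxygen, and complexes I, III and IV pump protons as they do so. Complex V, the ATP synthase, uses the returning protons to make ATP. Each complex holds a few catalytic core subunits and many accessory subunits, and some subunits of complex IV exist as isoforms typical of heart, skeletal muscle, testis or lung. Mouse embryos at gastrulation make much of their ATP by glycolysis, and their mitochondria mature later.

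Cells came from a pool of about 300 CD-1 embryos of 25 litters at embryonic day 7.5, when the first blood and vessel precursors form, and were sorted by antibodies to Endoglin (gene Eng), a co-receptor of the TGF-beta family, and Flk1 (gene Kdr), a receptor for vascular endothelial growth factor. The fractions carried both proteins (Eng+Flk1+), Flk1 alone (Eng-Flk1+), Endoglin alone (Eng+Flk1-) or neither (Eng-Flk1-), with 3 samples of 3000 cells each, all without genetic change or treatment. Messenger RNA was amplified as cDNA by a global PCR method, and each sample had its own 1-colour Agilent array. Since the samples of a fraction came from 1 pool of embryos, the p-values speak to the spread among sorted samples, which may be technical.

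A level below is the log2 of the processed signal minus the 75th percentile of its array, and a fold is a difference of 2 mean levels, so on the log2 scale, with its standard error from limma. A gene was called at a Benjamini-Hochberg adjusted p under 0.05 over all 22720 genes tested. Between 80.2% and 83.3% of spots were well above background on the 9 arrays of Eng+Flk1+, Eng-Flk1+ and Eng+Flk1-, against 66.5% to 76.3% on the 3 arrays of Eng-Flk1-. Kdr averaged 1.64 ± 0.18 for Eng+Flk1+ and 1.11 ± 0.76 for Eng-Flk1+, against -5.38 ± 1.87 for Eng+Flk1- and -6.20 ± 1.56 for Eng-Flk1- (SD, n = 3). Eng averaged 2.10 ± 0.93 for Eng+Flk1+ but 0.48 ± 0.55 for Eng+Flk1-, close to the 0.49 ± 1.02 of Eng-Flk1+ and above the -0.49 ± 0.86 of Eng-Flk1-, so its transcript did not follow the sort in every fraction. Slide 1 held the 3 Eng-Flk1- arrays and replicate 1 of Eng-Flk1+, slide 2 the other Eng-Flk1+ arrays and replicates 1 and 2 of Eng+Flk1+, and slide 3 replicate 3 of Eng+Flk1+ and the 3 Eng+Flk1- arrays. Slide and fraction can therefore be told apart only in part.

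Most subunit genes did not pass the test, and those that did were all low in the cells without either protein. Over the 4 fractions, the moderated F test of limma called 2 of the 79 members, Ndufv2 (adjusted p = 0.00554) and Ndufa3 (0.0109), against 467 of all genes, or 2.06%. Cox5a (0.0535) and Atp5c1 (0.0717) lay just outside the threshold, and 10 members had an unadjusted p under 0.05, as did 13.6% of all genes. In pairwise comparisons, 5 members rose in at least 1 other fraction against Eng-Flk1-, as did 2.83% of all genes. They were Ndufv2, Ndufa3 and Ndufa8 of complex I, Cox5a of complex IV and Atp5c1 of complex V, some of them not well above background on every Eng-Flk1- array. No member was called lower in any pairwise comparison, and none was called between Eng+Flk1+, Eng-Flk1+ and Eng+Flk1-.

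Ndufv2 is a core subunit of complex I in the matrix arm, where it carries an iron-sulfur cluster near the site of NADH oxidation. Its level was 1.62, 1.98 and 0.94 on the Eng+Flk1+ arrays, 3.00, 2.32 and 2.78 on the Eng-Flk1+ arrays and 2.93, 3.65 and 2.60 on the Eng+Flk1- arrays, against -1.22, -4.22 and -2.71 on the Eng-Flk1- arrays. The 3 arrays of Eng-Flk1- lay below all 9 others. Against Eng-Flk1-, Ndufv2 rose by 4.24 ± 0.69 for Eng+Flk1+ (limma adjusted p = 0.0108), by 5.42 ± 0.69 for Eng-Flk1+ (0.00438) and by 5.78 ± 0.69 for Eng+Flk1- (0.00398). The probe lies at 65988872 to 65989013 on chromosome 17 in the files' build, mm8, and is the gene's single probe in the set.

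Ndufa3, a small accessory subunit of complex I, was called in the same comparisons. Its level was 3.84, 2.76 and 1.37 for Eng+Flk1+, 3.59, 2.35 and 2.49 for Eng-Flk1+ and 4.08, 3.24 and 1.86 for Eng+Flk1-, against -1.39, -2.71 and -2.80 for Eng-Flk1-. Again no array of the other fractions reached down to those of Eng-Flk1-. Against Eng-Flk1-, Ndufa3 rose by 4.95 ± 0.77 for Eng+Flk1+ (limma adjusted p = 0.00878), by 5.11 ± 0.77 for Eng-Flk1+ (0.00915) and by 5.36 ± 0.77 for Eng+Flk1- (0.00855). Another probe of Ndufa3 gave folds of the same sign but smaller, 0.97, 1.93 and 1.99 in these comparisons. The probe used lies at 3222517 to 3222576 on chromosome 7 (mm8).

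Cox5a, a matrix-side subunit of complex IV (probe at 57329923 to 57330471 on chromosome 9, mm8), reached 1.59, -0.14 and 2.36 for Eng+Flk1+, 2.49, 0.16 and 1.69 for Eng-Flk1+ and 1.45, 0.90 and 2.35 for Eng+Flk1-, against -3.06, -1.63 and -5.25 for Eng-Flk1-. The groups did not overlap, but 1 of the 3 Eng-Flk1- arrays was not well above background. Against Eng-Flk1-, Cox5a rose by 4.58 ± 0.99 for Eng+Flk1+ (limma adjusted p = 0.0405), by 4.76 ± 0.99 for Eng-Flk1+ (0.0387) and by 4.88 ± 0.99 for Eng+Flk1- (0.0423). With normexp background correction these became 3.15, 3.31 and 3.42 and missed the threshold (limma adjusted p = 0.0593, 0.0508 and 0.0589). The calls were lost in 9, 9 and 8 of the 12 fits that left out 1 array, with a limma adjusted p of up to 0.150.

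Atp5c1, the gamma subunit that forms the rotating shaft of ATP synthase, was called in Eng+Flk1- alone. Its level was -1.0015, -4.75 and -4.29 for Eng+Flk1+, -2.87, 0.73 and -0.92 for Eng-Flk1+ and 0.30, -0.05 and 0.26 for Eng+Flk1-, against -4.82, -4.62 and -6.49 for Eng-Flk1-. The Eng+Flk1- arrays were close together, while those of Eng+Flk1+ and Eng-Flk1+ were spread widely and 2 of the 3 Eng+Flk1+ arrays lay near those of Eng-Flk1-. Against Eng-Flk1-, the fold was 5.48 ± 1.09 for Eng+Flk1- (limma adjusted p = 0.0380) and 4.30 ± 1.09 for Eng-Flk1+ (0.0828), with 2 of the 3 Eng-Flk1- arrays well above background. With normexp background correction the fold for Eng+Flk1- was 2.75 (0.131), and the call was lost in 6 of the 12 fits that left out 1 array (up to 0.120).

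Ndufa8, an accessory subunit of complex I with paired cysteine motifs, was called in Eng+Flk1+ alone. It had -1.15, -1.22 and -1.12 for Eng+Flk1+, -2.72, -5.23 and -2.67 for Eng-Flk1+ and -5.45, -3.15 and -3.20 for Eng+Flk1-, against -7.60, -3.51 and -6.71 for Eng-Flk1-. All 3 Eng+Flk1+ arrays lay above the 9 others. Against Eng-Flk1- the fold was 4.78 ± 1.08 (limma adjusted p = 0.0494), where another probe gave 4.41, and with normexp background correction 1.53 (0.0916). The call was lost in 10 of the 12 fits that left out 1 array (up to 0.140). Against Eng-Flk1+ the fold was 2.38 ± 1.08 (0.999), and 2 of the 3 Eng-Flk1- arrays were not well above background.

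**Figure D1:**
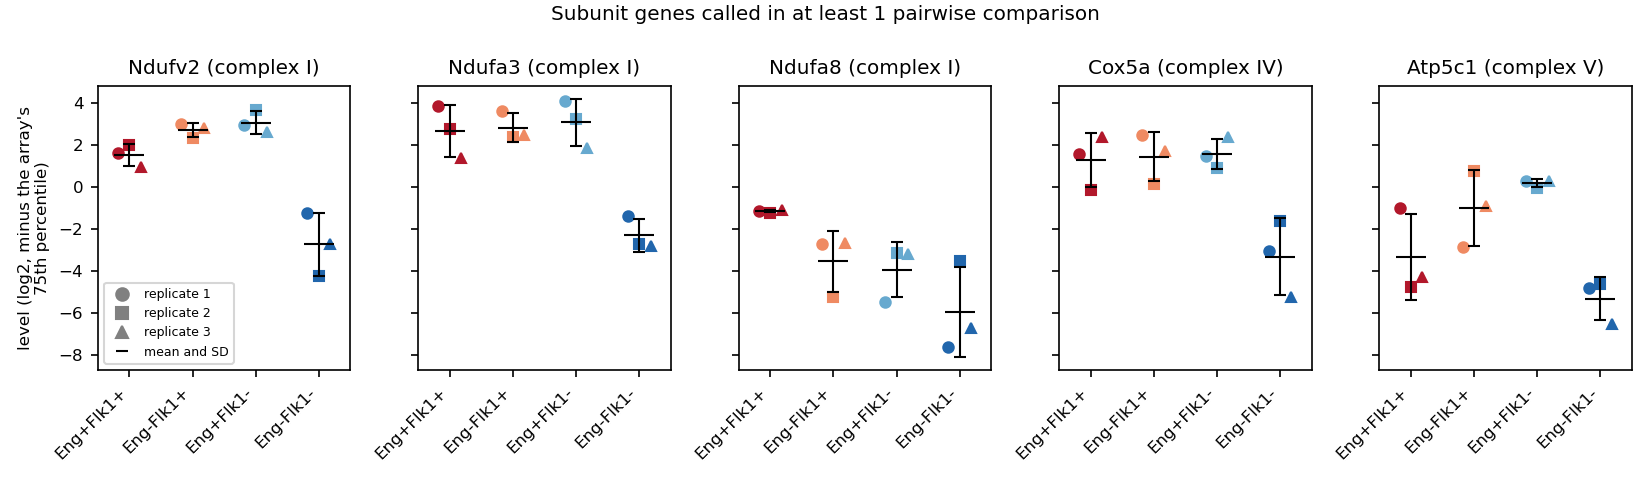
Level of the 5 called subunit genes on each array (log2 signal minus the array's 75th percentile), by fraction. Symbols are replicates, and bars are the mean and SD of 3 arrays. For Ndufv2, Ndufa3 and Cox5a the 3 Eng-Flk1- arrays sit below the 9 other arrays, while Atp5c1 is also low on 2 of the 3 Eng+Flk1+ arrays and Ndufa8 is highest on the 3 Eng+Flk1+ arrays.

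These calls rest on 1 fraction whose arrays shared a slide. Within slide 1, replicate 1 of Eng-Flk1+ against the 3 Eng-Flk1- arrays gave 5.72 for Ndufv2, 5.89 for Ndufa3 and 5.80 for Cox5a, as large as over all arrays. None of these passed in that fit of 4 arrays, where the lone Eng-Flk1+ array is assumed to vary like the rest (limma adjusted p = 0.717, 0.634 and 0.818). With slide as a block, no member was called in any comparison and 16 genes of the whole table passed in Eng-Flk1+ against Eng-Flk1-. The visceral endoderm list (Afp, Ttr, Apoa1 and others) was high in Eng-Flk1-, where the called members were low. Its summed level (log2 of the summed signals of the 9 genes) was 6.63 to 8.30 for Eng-Flk1-. It was 2.10 to 3.35 on the Eng+Flk1+ arrays, 2.18 to 3.71 for Eng-Flk1+ and 3.01 to 3.59 for Eng+Flk1-. On every array of the 4 fractions, 8 or 9 of the 9 genes were well above background. Other lists differed between Eng-Flk1- and some or all of the other fractions. The epiblast list was at 2.97 to 3.46 for Eng+Flk1+, 2.93 to 3.70 for Eng-Flk1+ and 4.12 to 4.51 for Eng+Flk1-, against 5.02 to 6.69 for Eng-Flk1-, with 5 to 7 of its 7 genes well above background. The primitive erythroid list was at 0.69 to 2.02, 1.06 to 1.33 and 3.06 to 4.04 in the same order, against 4.68 to 5.36 for Eng-Flk1-, with 7 or 8 of its 8 genes well above background. A summed level leans on the brightest genes of a list. In Eng+Flk1- against Eng-Flk1-, 6 of 8 erythroid genes had a fold below 0 and 2 above. Of the 7 epiblast genes, 5 had a fold below 0 and 2 above. The mean log2 level of the erythroid list overlapped, at -1.09 to 0.10 for Eng+Flk1- and -0.99 to -0.11 for Eng-Flk1-. The mesenchyme list was at 2.43 to 3.35 for Eng-Flk1+ and 2.60 to 3.63 for Eng+Flk1-. For Eng-Flk1- it was at 0.70 to 1.74, with 4 or 5 of its 7 genes well above background. Those arrays overlapped in summed level with Eng+Flk1+, at 0.96 to 2.00. The mean log2 level of the mesenchyme list did not overlap, by a narrow margin, at -2.909 to -1.375 for Eng+Flk1+ and -4.592 to -2.933 for Eng-Flk1-. Between these 2 fractions 6 of its 7 genes had a fold above 0 and 1 below. The endothelial list was at 5.02 to 5.71 for Eng+Flk1+ and 2.87 to 3.74 for Eng-Flk1+. For Eng-Flk1- it was at 0.70 to 2.11, with 6 of its 8 genes well above background. Those arrays overlapped with Eng+Flk1-, at 0.41 to 1.09. The trophoblast list was at 4.89 to 5.215 for Eng+Flk1-, against 1.55 to 2.72 for Eng-Flk1-. Eng+Flk1+, at 2.64 to 3.75, and Eng-Flk1+, at 2.60 to 3.42, overlapped with Eng-Flk1- in that list. The part of cell composition, of slide and of the lower share of detected spots in these folds was not tested, and in bulk samples fewer cells of a type and less RNA per cell cannot be told apart.

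The promoters of the 5 called genes are shown for comparison of their sequence. Each run is the 250 bases before the start of the gene, from RefSeq on GRCm38.p6, 5′ to 3′ on the gene's own strand, and Atp5c1 has 2 starts. Capitals mark matches to GCGCANGC or its reverse complement GCNTGCGC, letters at the centre of sites bound by the factor NRF1, which is known to act on many genes of the respiratory chain.
Ndufv2, chr17:66101560-66101809, minus strand: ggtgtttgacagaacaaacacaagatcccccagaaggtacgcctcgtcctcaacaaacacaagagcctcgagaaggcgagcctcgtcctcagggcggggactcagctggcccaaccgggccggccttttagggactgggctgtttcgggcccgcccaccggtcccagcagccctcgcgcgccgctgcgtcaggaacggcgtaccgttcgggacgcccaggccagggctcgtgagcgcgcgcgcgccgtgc
Ndufa3, chr7:3617123-3617372, plus strand: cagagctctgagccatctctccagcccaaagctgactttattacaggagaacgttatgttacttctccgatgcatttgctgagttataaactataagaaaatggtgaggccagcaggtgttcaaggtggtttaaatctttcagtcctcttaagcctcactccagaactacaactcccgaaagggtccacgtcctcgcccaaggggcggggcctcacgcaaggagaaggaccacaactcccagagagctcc
Cox5a, chr9:57520982-57521231, plus strand: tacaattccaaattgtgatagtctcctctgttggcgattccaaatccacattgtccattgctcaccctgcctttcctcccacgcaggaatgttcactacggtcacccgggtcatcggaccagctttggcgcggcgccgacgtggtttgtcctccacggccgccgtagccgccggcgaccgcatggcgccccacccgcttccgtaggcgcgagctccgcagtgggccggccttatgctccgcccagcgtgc
Atp5c1, first start, chr2:10080511-10080760, minus strand: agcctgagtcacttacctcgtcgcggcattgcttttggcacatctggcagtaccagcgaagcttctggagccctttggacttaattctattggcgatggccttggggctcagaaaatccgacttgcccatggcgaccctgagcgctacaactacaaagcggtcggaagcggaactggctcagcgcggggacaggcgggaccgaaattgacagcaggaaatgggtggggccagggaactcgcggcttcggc
Atp5c1, second start, chr2:10080433-10080682, minus strand: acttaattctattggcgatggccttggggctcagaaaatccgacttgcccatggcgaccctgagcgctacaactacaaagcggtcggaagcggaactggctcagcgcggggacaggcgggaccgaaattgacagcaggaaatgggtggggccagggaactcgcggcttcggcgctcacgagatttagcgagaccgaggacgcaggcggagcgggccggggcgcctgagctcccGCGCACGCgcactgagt
Ndufa8, chr2:36049339-36049588, minus strand: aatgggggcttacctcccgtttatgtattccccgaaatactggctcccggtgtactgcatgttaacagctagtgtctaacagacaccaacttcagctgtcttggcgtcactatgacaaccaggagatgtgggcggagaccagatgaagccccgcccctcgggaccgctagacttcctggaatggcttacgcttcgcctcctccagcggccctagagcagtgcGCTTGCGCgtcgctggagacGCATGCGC
Ndufa8 held 2 matches and the second start of Atp5c1 held 1, while the printed runs of Ndufv2, Ndufa3 and Cox5a held none of these letters, which says nothing about binding of the factor.

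The same letters were counted in windows of 300 bases, 250 before to 50 after a start, on both strands, with 64 of the 78 subunit genes matched and 69 windows among them. The NRF1 letters stood in 24 of the 69 windows, or 34.8%, against 9.95% of all 32851 windows and 13.2% of the 21263 windows of protein-coding genes. CCGGAAG, the letters of the ETS family that includes GABP, stood in 23.2% of the subunit windows, against 11.6% of those of protein-coding genes. AANATGGC, the letters of YY1, stood in 24.6% against 6.37%. By complex, the NRF1 letters stood in 10 of 33 windows of complex I, 3 of 3 of complex II, 2 of 4 of complex III, 1 of 12 of complex IV and 8 of 17 of complex V, and the YY1 letters in 12 of 33, 0 of 3, 0 of 4, 1 of 12 and 4 of 17. The window of Ndufa3 holds the YY1 letters after its start.

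Among the cells without Flk1, Eng+Flk1- against Eng-Flk1- asks what goes with Endoglin there. Of the 79 members 4 rose, Ndufv2, Ndufa3, Cox5a and Atp5c1, where 1.46% of all genes were called, 1.23% higher and 0.224% lower. The median fold of the members was 0.70, against -0.06 for all genes tested, and 53 of 79 folds were above 0, against 47.5% of all genes. Relative to the median of all genes, the members stood at 0.77, and between 0.55 and 1.04 over the alternative settings. By complex the median relative to all genes was 0.98 for complex I, 0.40 for complex II, 0.78 for complex III, 0.76 for complex IV and 0.29 for complex V. With 1 array left out, complex I ran from 0.59 (without replicate 3 of Eng+Flk1-) to 1.23 and complex IV from 0.48 (without replicate 1 of Eng+Flk1-) to 1.02. Complex II ran from 0.15 (without replicate 3 of Eng-Flk1-) to 0.90 (without replicate 2), complex III from 0.12 (without replicate 1 of Eng-Flk1-) to 1.09 (without replicate 3) and complex V from 0.051 (without replicate 3 of Eng+Flk1-) to 0.76 (without replicate 1), so the complexes had no settled order. The arrays of the fractions did not overlap for 11 members that were higher in Eng+Flk1- (8.93% of all genes) and for 3 that were lower (10.1%).

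Some named members kept these arrays apart without passing. Ndufs6, an accessory subunit of complex I that helps complete the matrix arm, was at 2.76, 3.03 and 3.03 for Eng+Flk1-, against 1.07, 1.28 and -0.89 for Eng-Flk1-, with a fold of 2.45 ± 0.60 that missed the threshold (limma adjusted p = 0.0804). Sdha, the flavoprotein of complex II that oxidises succinate, was at 4.12, 4.36 and 4.25 for Eng+Flk1-, against 3.33, 3.23 and 3.07 for Eng-Flk1- (fold 1.04 ± 0.45, 0.323). Both genes had arrays that did not overlap, and neither passed. Atp5k, the small e subunit of ATP synthase, ran the other way, at 3.81, 4.08 and 4.33 for Eng+Flk1- against 5.61, 4.84 and 5.59 for Eng-Flk1- (fold -1.27 ± 0.40, 0.178). Uqcrc2 of complex III and Cox4i2 of complex IV were also higher, and Cox6a2 of complex IV lower, in Eng+Flk1- without overlap, and none of them passed.

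Among the cells without Endoglin, Eng-Flk1+ against Eng-Flk1- asks what goes with Flk1. There 3 members rose, Ndufv2, Ndufa3 and Cox5a, where 1.91% of all genes were called, 1.64% higher and 0.273% lower. Folds were above 0 for 57 of 79 members, against 45.5% of all genes. The median fold of the members was 0.50, against -0.13 for all genes, and it turned to -0.10 in the authors' table, whose scaling set the median of all genes at -0.73. Relative to all genes the members stood at 0.63 under both scalings, and between 0.51 and 1.28 over the alternative settings. The relative medians were 0.63, 0.53, 0.75, 0.56 and 0.74 for complexes I, II, III, IV and V, all above 0 in each fit that left out 1 array. The widest ranges were those of complex III, up to 1.74 without replicate 3 of Eng-Flk1-, and of complex V, down to 0.21 without the same array. Complex I reached 1.075 without replicate 2 of Eng-Flk1+, and complex II ran from 0.34 without replicate 3 of Eng-Flk1+ to 1.043 without replicate 2 of Eng-Flk1-. For 13 members the Eng-Flk1+ arrays lay wholly above those of Eng-Flk1- (9.42% of all genes), and for 2 wholly below (12.7%).

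Complexes II and III had no called member in this comparison, but some of their subunits kept the arrays apart. Sdhb, the iron-sulfur subunit of complex II, was at 2.17, 1.91 and 2.03 for Eng-Flk1+, against 1.69, -2.08 and -3.55 for Eng-Flk1- (fold 3.35 ± 1.09, limma adjusted p = 0.169). Uqcrq, a small subunit of complex III, was at 0.75, -0.32 and 0.10 against -4.50, -1.76 and -1.40 (fold 2.73 ± 0.96, 0.195). Uqcrfs1, the Rieske iron-sulfur protein of complex III, was well above background on all 3 arrays of Eng-Flk1+ and on none of Eng-Flk1-. It passed the filter on dim probes through Eng-Flk1+ alone, so its detection there was a condition for being tested and is no result. No fold is read from it for that reason, and it did not pass (measured means -3.02 and -7.22, limma adjusted p = 0.212). Uqcrc2, a structural core subunit of complex III, was at 3.09, 3.09 and 3.05 for Eng-Flk1+ and 2.70, 2.74 and 2.23 for Eng-Flk1- (fold 0.52 ± 0.35, 0.458).

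The fractions with both proteins and with neither differ in both markers. In Eng+Flk1+ against Eng-Flk1-, 4 members rose, Ndufa3, Ndufv2, Cox5a and Ndufa8, where 2.36% of all genes were called, 1.97% higher and 0.396% lower. The median fold was 0.12, against -0.06 for all genes, with 45 of 79 above 0 against 47.6%, and it turned to -0.47 in the authors' table, where the median of all genes was -0.66. Relative to all genes, complexes I to IV stood at 0.36, 0.18, 0.21 and 0.55. With 1 array left out, complex I went down to 0.057 (without replicate 1 of Eng+Flk1+), complex II to -0.21 (without replicate 3 of Eng-Flk1-), and complex III up to 1.15 (without the same array). Complex V stood at -0.49, but at 0.21 with quantile normalization and at 0.0060 without replicate 2 of Eng-Flk1-, so it had no settled direction. For 7 members the Eng+Flk1+ arrays lay wholly above (8.88% of all genes) and for 8 wholly below (9.19%).

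Some named members lay lower in Eng+Flk1+ than in Eng-Flk1-, without a call. They are examples only, since the share of members wholly below, 8 of 79, was near that of all genes (9.19%). Uqcrb, the ubiquinone-binding subunit of complex III, was at 4.73, 4.25 and 5.20 for Eng+Flk1+, against 5.90, 5.28 and 6.14 for Eng-Flk1- (fold -1.05 ± 0.43, limma adjusted p = 0.279). Atp5k was at 4.24, 3.66 and 3.84 for Eng+Flk1+ against 5.61, 4.84 and 5.59 for Eng-Flk1- (fold -1.43 ± 0.40, 0.109). In both genes the 2 groups of arrays did not overlap.

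Among the Flk1 positive cells the members leaned lower with Endoglin, but none passed. In Eng+Flk1+ against Eng-Flk1+, 0 of 79 members were called by limma, where 0.0264% of all genes were called, and 2 members had an unadjusted p under 0.05, as did 4.78% of all genes. The median fold was -0.47, against 0.10 for all genes, and 64 of 79 folds were below 0, against 44.4% of all genes. Relative to all genes the members stood at -0.57, between -0.97 and -0.24 over the alternative settings, and the median fold within slide 2 was -0.40. The relative medians of complexes I to V were -0.57, -0.47, -0.62, -0.36 and -0.60. Without replicate 2 of Eng+Flk1+ those of complexes I and V were -0.21 and -0.32, and those of complexes II and IV turned to 0.018 and 0.074. In the fit of all arrays, 14 of the 15 genes of complex V had a fold below 0. The arrays did not overlap for 9 members that were lower in Eng+Flk1+ (6.37% of all genes) and for 1 that was higher (7.45%), Ndufa8. The summed level of the endothelial list was 5.02 to 5.71 on the Eng+Flk1+ arrays, against 2.87 to 3.74 on the Eng-Flk1+ arrays, with a fold above 0 for all 8 genes, and that of the mesenchyme list 0.96 to 2.00 against 2.43 to 3.35, with a fold below 0 for 6 of 7 genes. All genes of both lists were well above background on these 6 arrays, and their part in the shift of the members was not tested.

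Of the 9 lower members, 5 were of complex I, 1 of complex III and 3 of complex V. Atp5e, the epsilon subunit of its central stalk, was at 1.06, 0.90 and -1.49 for Eng+Flk1+, against 3.32, 3.68 and 3.36 for Eng-Flk1+ (fold -3.30 ± 1.25, limma adjusted p = 0.902). Atp5g1, 1 of 3 genes that encode the same mature c subunit of the membrane ring, was at 1.78, 1.38 and 1.97 for Eng+Flk1+ against 3.24, 2.52 and 2.95 for Eng-Flk1+ (fold -1.19 ± 0.64, 0.999). In both genes every Eng+Flk1+ array was lower, and in neither did the difference pass.

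Among the Endoglin positive cells, Eng+Flk1+ against Eng+Flk1- used the same Eng+Flk1+ arrays as the comparison before. No member was called by limma, where 0.295% of all genes were called, and 4 members had an unadjusted p under 0.05, as did 6.6% of all genes. The median fold was -0.51, against -0.015 for all genes, and 58 of 79 folds were below 0, against 50.9%. Relative to all genes the members stood at -0.50, and between -0.70 and -0.077 over the alternative settings. The median was -0.18 without replicate 2 of Eng+Flk1+ and -0.23 with slide as a block or within slide 3. The relative medians were -0.75 for complex I and -0.56 for complex V. With 1 array left out they ran from -1.02 (without replicate 1 of Eng+Flk1+) to -0.33 (without replicate 2) for complex I, and from -0.75 (without replicate 1 of Eng+Flk1-) to -0.094 (without replicate 2 of Eng+Flk1+) for complex V. Complexes II, III and IV, at 0.24, -0.19 and -0.28, changed sign in 2, 2 and 1 of the 12 fits that left out 1 array, among them replicate 1 of Eng+Flk1- (-0.30 for complex II), replicate 2 of Eng+Flk1- (0.058 for complex III) and replicate 2 of Eng+Flk1+ (0.15 for complex IV), so they had no settled direction. Lists of other cell types moved in this comparison as well: the summed level of the trophoblast list was 2.64 to 3.75 on the Eng+Flk1+ arrays, against 4.89 to 5.21 on the Eng+Flk1- arrays, that of the primitive erythroid list 0.69 to 2.02 against 3.06 to 4.04, and that of the endothelial list 5.02 to 5.71 against 0.41 to 1.09. Folds were below 0 for all 7 trophoblast genes and for 5 of 8 erythroid genes, and above 0 for all 8 endothelial genes. The part of these lists in the shift of the members was not tested. In 17 members the Eng+Flk1+ arrays lay wholly below those of Eng+Flk1- (7.35% of all genes), and in 3 wholly above (7.83%).

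Of the 17 lower members, 6 were of complex I and 4 of complex V. Atp5c1, at the levels given above, had a fold of -3.52 ± 1.09 (limma adjusted p = 0.383), Atp5e of -2.76 ± 1.25 (0.764) and Atp5g1 of -1.23 ± 0.64 (0.878). Ndufv2 had a fold of -1.54 ± 0.69 (0.755), and its Eng+Flk1+ arrays lay below both the Eng-Flk1+ and the Eng+Flk1- arrays. Ndufa8 ran the other way, with 2.77 ± 1.08 (0.642).

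The last comparison sets the cells with Flk1 alone against those with Endoglin alone. In Eng-Flk1+ against Eng+Flk1-, 0 of 79 members were called by limma and 0 had an unadjusted p under 0.05, where 0.101% of all genes were called and 5.37% had an unadjusted p under 0.05. The median fold was 0.04, against -0.09 for all genes, and it was -0.0022 in the authors' table. Folds were above 0 for 43 members, against 44.6% of all genes. The relative medians of complexes I to V were 0.02, 0.54, 0.52, 0.15 and 0.05, and leaving out 1 array turned the sign for complexes I, IV and V (to -0.24, -0.12 and -0.16 without replicate 1 of Eng-Flk1+). The arrays did not overlap for 6 members that were higher in Eng-Flk1+ (7.08% of all genes) and 4 that were lower (8.6%). A median near that of all genes does not show that single genes were equal, since the standard errors of the named members ran from 0.35 for Uqcrc2 to 2.17 for Atp5g3.

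**Figure D2:**
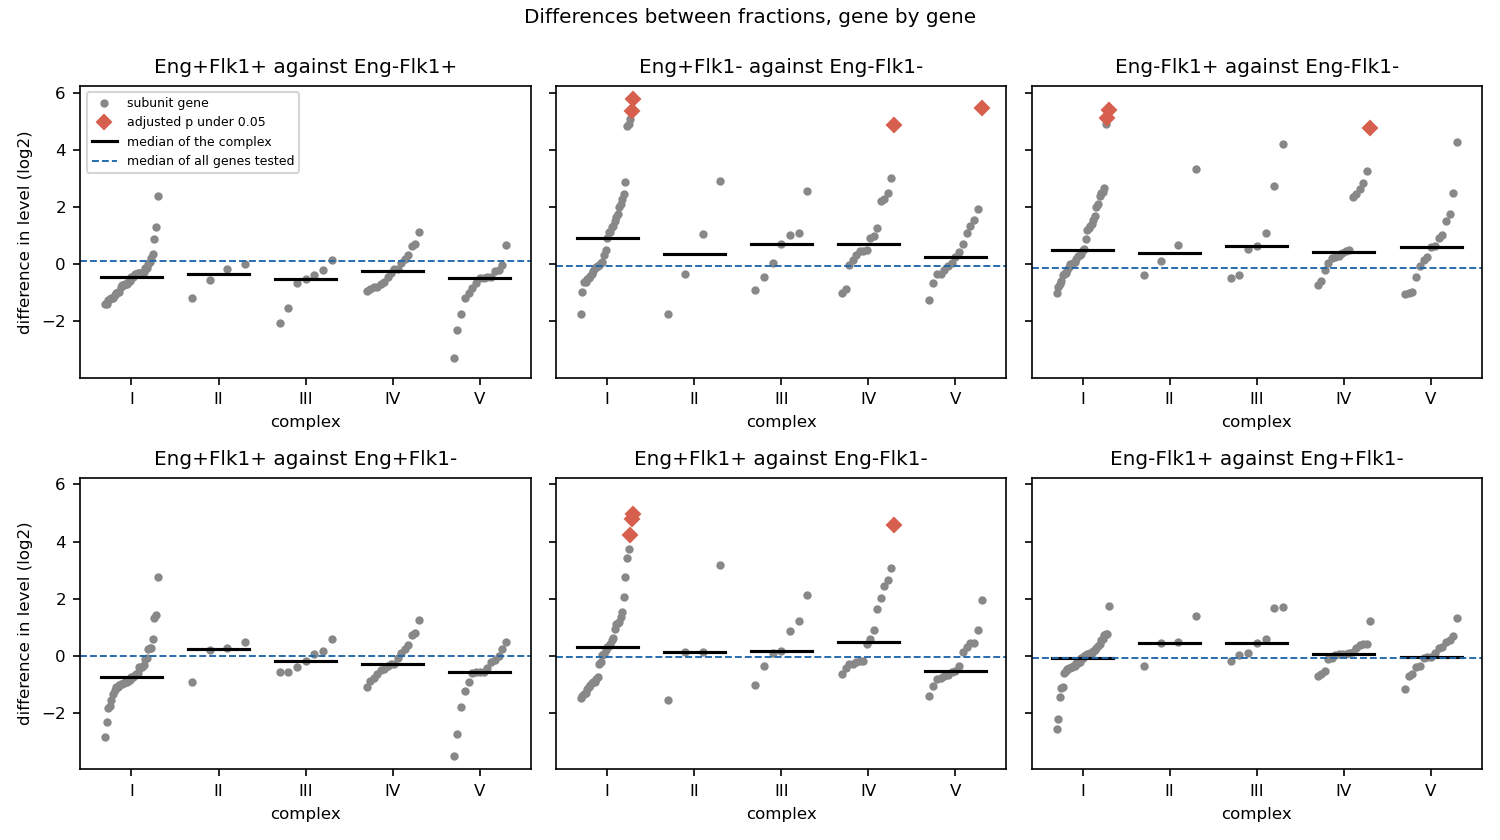
Fold of each tested subunit gene (difference in mean log2 level) in the 6 pairwise comparisons, by complex. Grey points are genes, diamonds are genes with an adjusted p under 0.05, black bars are medians of a complex, and the dashed line is the median of all genes tested. The diamonds all lie above 0 and all in comparisons with Eng-Flk1-, and the medians of complexes I and V lie at -0.47 and -0.50 for Eng+Flk1+ against Eng-Flk1+.

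The difference between the 2 Endoglin comparisons was itself tested. The interaction, (Eng+Flk1+ minus Eng-Flk1+) minus (Eng+Flk1- minus Eng-Flk1-), was called for 1 of 79 members, Ndufv2 (-6.96 ± 0.97, limma adjusted p = 0.0236), where 0.273% of all genes were called, 0.26% with a value below 0. Ndufv2 had a fold of -1.18 ± 0.69 among Flk1 positive cells and of 5.78 ± 0.69 among Flk1 negative cells. Atp5c1 (-7.81 ± 1.54, 0.0774) and Ndufa3 (-5.51 ± 1.09, 0.0776) did not pass. The median over the members was -1.09, against 0.14 over all genes, and 65 of 79 values were below 0, against 45.7%. All 4 fractions enter this value, so the wide spread of the Eng-Flk1- arrays enters it too.

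The order of the fractions was then read gene by gene, as a description. Eng-Flk1- had the lowest mean for 41 of the 79 members (30.7% of all genes) and Eng+Flk1+ for 26 (20.1%), whereas Eng-Flk1+ was lowest for 2 (29.9%) and Eng+Flk1- for 10 (19.3%). The highest mean was that of Eng+Flk1+ in 6 members (21.7% of all genes), of Eng-Flk1+ in 27 (19.3%), of Eng+Flk1- in 30 (21.9%) and of Eng-Flk1- in 16 (37.1%). In complex I, Eng+Flk1- was highest for 17 of 35 genes, and in complex IV, Eng-Flk1+ was highest for 8 of 16. In complex V, Eng+Flk1+ was lowest for 8 of 15 genes and highest for none.

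A score per array shows the spread: for each complex, the mean over its subunits of the level minus the gene's own mean over the 12 arrays, for subunits well above background on all arrays. Complex I (30 genes) stood at 0.33, -0.60 and -0.30 for Eng+Flk1+, 0.70, -0.28 and 0.44 for Eng-Flk1+ and 0.21, 0.35 and 0.46 for Eng+Flk1-, against -0.37, -0.62 and -0.32 for Eng-Flk1-. The 3 Eng-Flk1- arrays lay below the 3 Eng+Flk1- and the 3 Eng-Flk1+ arrays, while those of Eng+Flk1+ ran across all of them. Complex II (4 genes) stood at 0.17, -0.18 and 0.0067 for Eng+Flk1+, 0.56, 0.23 and 0.64 for Eng-Flk1+ and -0.40, 0.54 and -0.16 for Eng+Flk1-, against -0.21, -0.34 and -0.85 for Eng-Flk1-. Here Eng-Flk1+ was above Eng+Flk1+ and Eng-Flk1- without overlap. Complex III (6 genes) ranged from -1.35 to 1.23 within Eng-Flk1-, so wide a spread that no other fraction left its range.

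Complex IV (14 genes) stood at 0.43, -0.20 and 0.06 for Eng+Flk1+, 0.40, -0.096 and 0.43 for Eng-Flk1+ and 0.21, 0.092 and 0.27 for Eng+Flk1-, against -0.059, -0.56 and -0.97 for Eng-Flk1-. Its Eng+Flk1- arrays lay above the Eng-Flk1- arrays without overlap. Complex V (13 genes) was the complex with its lowest mean in Eng+Flk1+, at -0.080, -0.75 and -0.60, against 0.70, -0.048 and 0.49 for Eng-Flk1+, -0.051, 0.38 and 0.36 for Eng+Flk1- and 0.15, 0.20 and -0.75 for Eng-Flk1-. The Eng+Flk1+ arrays were below all Eng-Flk1+ and Eng+Flk1- arrays, by a narrow margin. Over the 67 subunit genes of the 5 complexes the score averaged -0.17 ± 0.37 for Eng+Flk1+, 0.32 ± 0.42 for Eng-Flk1+, 0.23 ± 0.10 for Eng+Flk1- and -0.38 ± 0.09 for Eng-Flk1- (SD, n = 3).

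**Figure D3:**
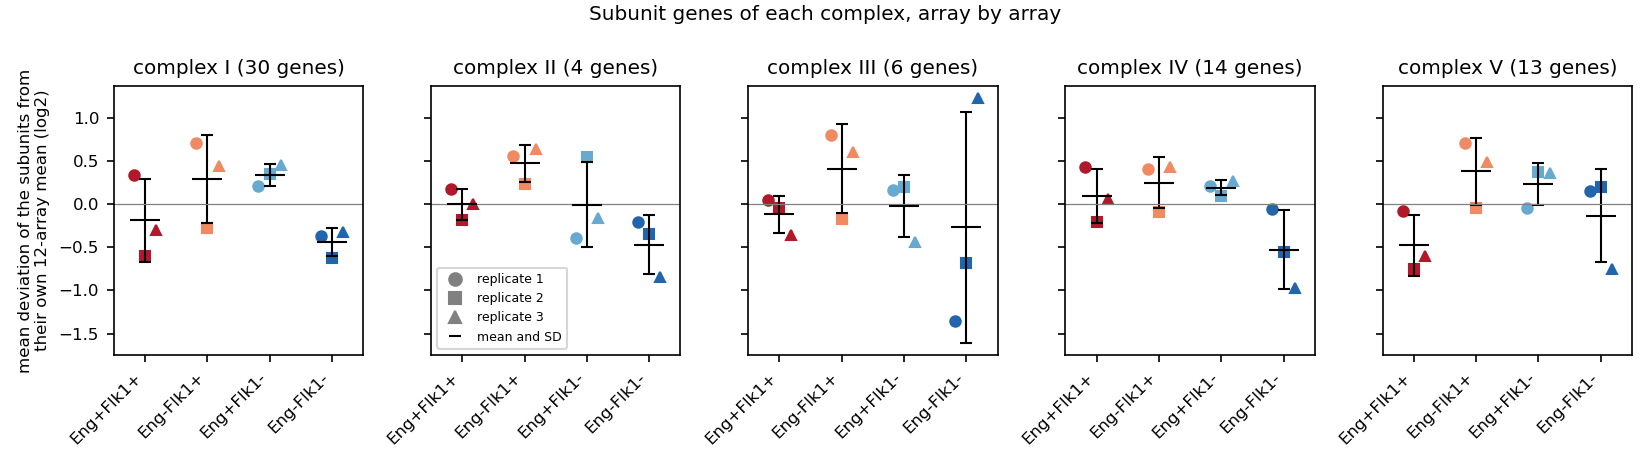
Mean deviation of the subunit genes of each complex from their own 12-array mean (log2), for each array and fraction. Symbols are replicates and bars are the mean and SD of 3 arrays. Complex I is lowest in Eng-Flk1- (mean -0.44), complex V in Eng+Flk1+ (mean -0.48), and the Eng-Flk1- arrays of complex III run from -1.35 to 1.23.

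Single arrays moved many members together. Replicate 2 of Eng-Flk1+ was the lowest of its fraction for 53 of 79 members, against 32.27% of all genes, and replicate 2 of Eng+Flk1+ for 45, against 27.36%. Replicate 1 of Eng-Flk1+ was the highest of its fraction for 46 members, against 27.15%. The 2 low arrays shared slide 2, which also held replicate 3 of Eng-Flk1+ and replicate 1 of Eng+Flk1+, both with higher scores. They shared the replicate number as well, and why they were low was not tested. The median SD over the 3 arrays was 0.78 for Eng+Flk1+, 0.50 for Eng-Flk1+, 0.50 for Eng+Flk1- and 1.49 for Eng-Flk1- for the members, against 0.67, 0.58, 0.56 and 1.01 for all genes. In Eng-Flk1-, 55 of 79 members had an SD over 1, or 69.62%, against 50.62% of all genes, and in Eng+Flk1- 12 members, or 15.19%, against 25.77%.

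**Figure D4:**
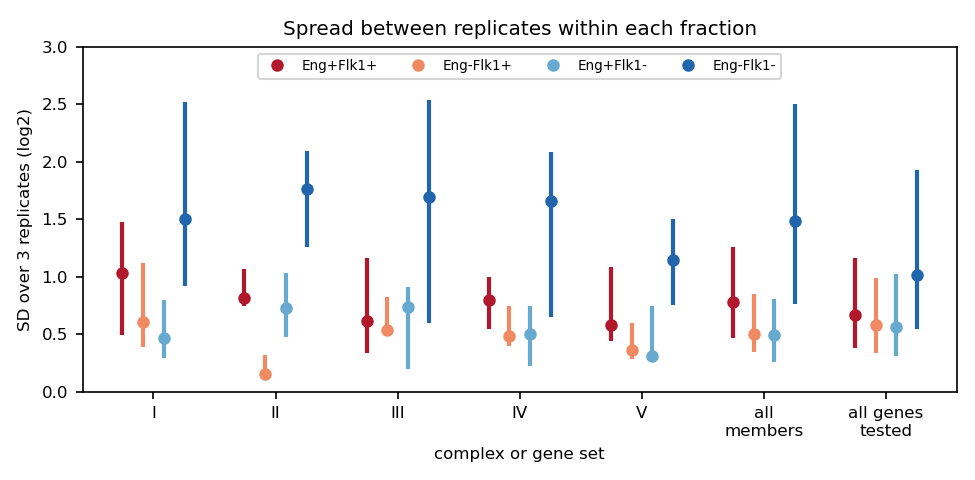
SD of the level over the 3 replicates of a fraction (log2), for the genes of each complex, all members and all genes tested. Points are medians over genes and lines run from the lower to the upper quartile. Eng-Flk1- has the highest median in every set, 1.49 for all members and 1.01 for all genes.

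Some members differed widely among the 3 Eng-Flk1- arrays. Ndufs4, an accessory subunit of complex I whose loss causes a Leigh-like disease in mice, is named after its values were seen. It was at 0.59, -2.96 and 0.62 for Eng+Flk1+, 1.09, 0.23 and 0.53 for Eng-Flk1+ and 0.21, -0.16 and 1.52 for Eng+Flk1-, against 2.05, -7.77 and -7.21 for Eng-Flk1-. Only replicate 1 of Eng-Flk1- was well above background there, so the values of replicates 2 and 3 are bounds, and the gene passed in no comparison. Cox7a2, well above background on all 12 arrays, was at 2.34, 1.16 and 2.52 for Eng+Flk1+, 3.23, 2.498 and 2.74 for Eng-Flk1+ and 2.28, 2.45 and 2.66 for Eng+Flk1-, against 3.91, 1.105 and -5.05 for Eng-Flk1-.

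**Figure D5:**
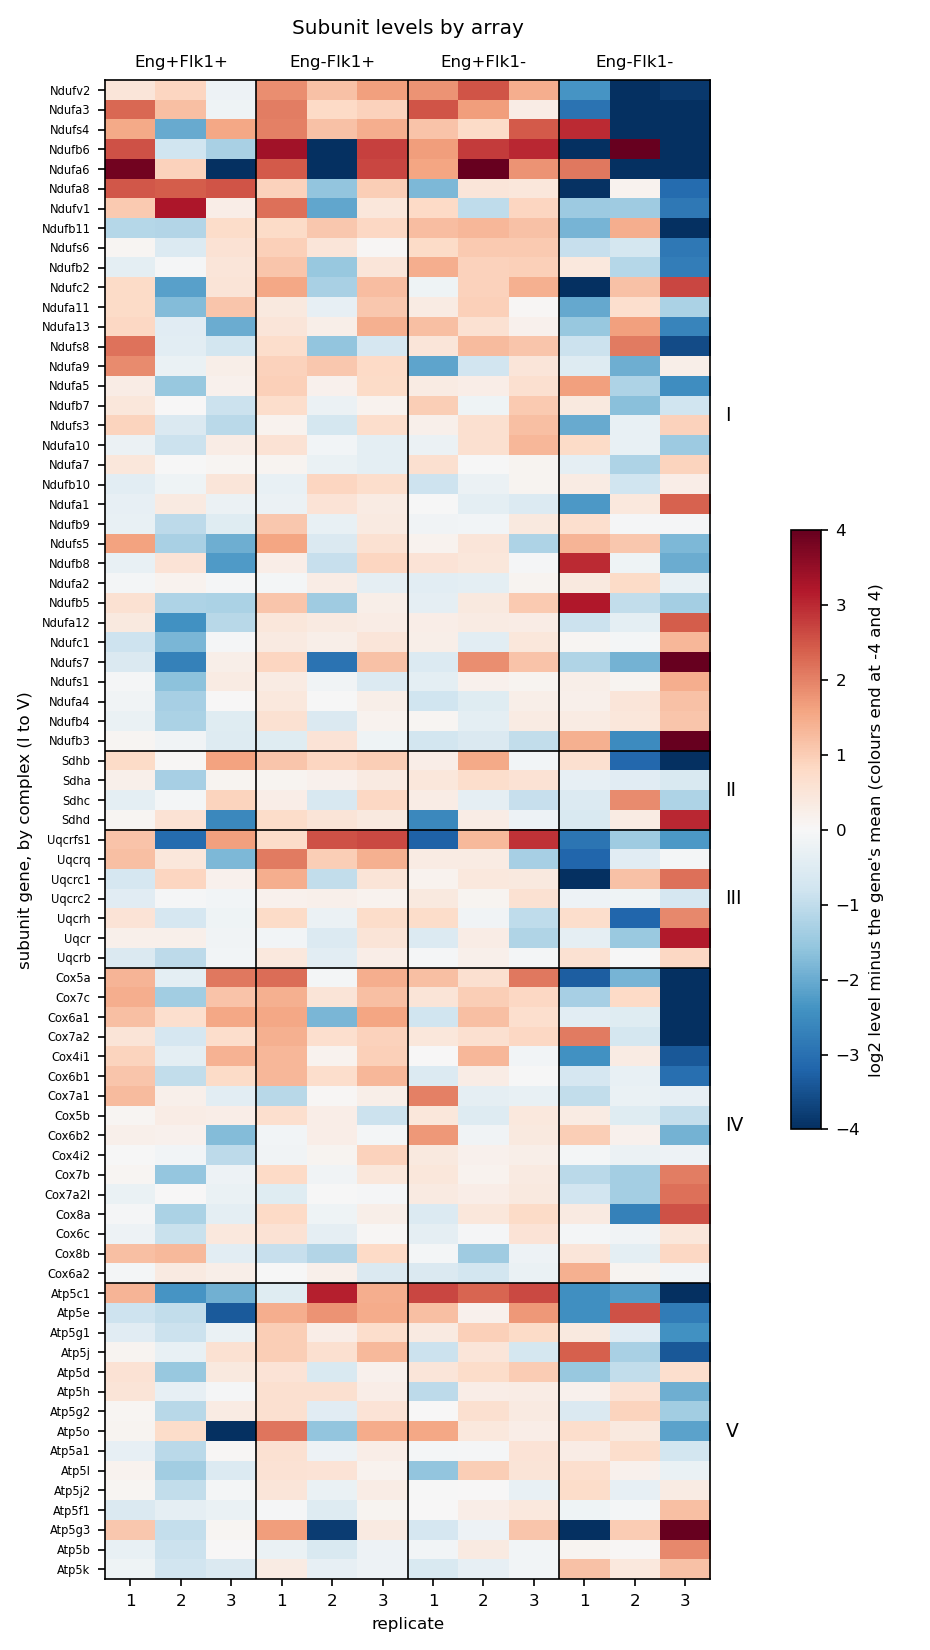
Level of tested subunit genes on every array, as log2 level minus the gene's mean, with genes in rows by complex and arrays in columns by fraction. Within a complex, genes are ordered by the difference between the other 9 arrays and the 3 Eng-Flk1- arrays, and grey marks a missing value. The strongest colours, in both directions, stand in the Eng-Flk1- columns, and Ndufv2 and Ndufa3 are low on all 3 of them.

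Among the nuclear core genes of complex I, Ndufv2 alone was called. Ndufv1, the partner of Ndufv2 that binds NADH, was at -0.28, 1.89 and -1.07 for Eng+Flk1+, against -2.78, -2.77 and -4.17 for Eng-Flk1- (fold 3.42 ± 1.104, limma adjusted p = 0.168), with no overlap. Ndufs1, the largest iron-sulfur subunit, was at 2.73, 1.13 and 3.11 for Eng+Flk1+, against 3.01, 2.88 and 4.21 for Eng-Flk1- (fold -1.04 ± 0.59, 0.429). Ndufs3, Ndufs7 and Ndufs8 had folds of 0.20, -1.50 and 1.13 in the same comparison, with standard errors of 0.78, 1.69 and 1.28. The core genes therefore had folds in both directions.

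The isoforms of complex IV were next. Cox4i1, the common form of subunit 4, was at 2.28, 0.99 and 2.77 for Eng+Flk1+, 2.71, 1.54 and 2.35 for Eng-Flk1+ and 1.39, 2.71 and 1.27 for Eng+Flk1-, against -1.04, 1.72 and -1.99 for Eng-Flk1- (F test of limma, adjusted p = 0.355). Cox4i2, the form known from lung, was at -0.78 ± 0.58 for Eng+Flk1+, -0.10 ± 0.57 for Eng-Flk1+, -0.12 ± 0.12 for Eng+Flk1- and -0.56 ± 0.08 for Eng-Flk1- (SD, n = 3; F test of limma, adjusted p = 0.709). Both were well above background on all 12 arrays.

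Cox6a1, the form of subunit 6a found in most tissues, had its largest fold, 3.07 ± 1.26, in Eng+Flk1+ against Eng-Flk1- (Benjamini-Hochberg adjusted p of limma = 0.279). Cox6a2, the heart and muscle form, had folds of -0.30 ± 0.47 in that comparison and -1.01 ± 0.47 for Eng+Flk1- against Eng-Flk1- (0.801 and 0.363), the last without overlap of the arrays. Cox6b1, the common form of subunit 6b, had 2.46 ± 0.76 for Eng-Flk1+ against Eng-Flk1- (0.148) and Cox6b2, the testis form, 0.26 ± 0.81 (0.891). In the same comparison Cox7a1, the heart and muscle form of subunit 7a, had 0.25 ± 0.72 (0.883), Cox7a2, its common form, 2.84 ± 1.69 (0.399), and Cox7a2l, which joins complexes III and IV, -0.22 ± 0.76 (0.904). Cox8a, the common form of subunit 8, had 0.22 ± 1.06 (0.932) and Cox8b, the heart and muscle form, -0.75 ± 0.70 (0.593). No isoform was called in any comparison. Cox8c, a testis form, was well above background on 1 Eng+Flk1+, 1 Eng-Flk1+, 1 Eng+Flk1- and no Eng-Flk1- array.

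The c subunit genes of ATP synthase encode 1 mature protein with different import sequences. Atp5g1 was lowest in Eng+Flk1+ among the arrays of the 3 fractions with a sorting marker. Atp5g2 was at 3.18, 1.96 and 3.41 for Eng+Flk1+, 3.74, 2.64 and 3.64 for Eng-Flk1+ and 3.11, 3.71 and 3.46 for Eng+Flk1-, against 2.51, 3.99 and 1.68 for Eng-Flk1-, with overlap between all fractions. Atp5g3 was not well above background on 2 of 12 arrays and ran from -7.92 to 2.30 within Eng-Flk1- alone. The F tests of limma gave an adjusted p of 0.421, 0.852 and 0.990 for Atp5g1, Atp5g2 and Atp5g3.

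At the other end, some subunits differed little among the fractions on the probe used. The members with the smallest range of fraction means in complexes I to V were Ndufa7, Sdhc, Uqcrh, Cox6c and Atp5j2. Sdhc, a membrane anchor of complex II, averaged 0.08 ± 0.67 for Eng+Flk1+, 0.07 ± 0.73 for Eng-Flk1+, -0.40 ± 0.60 for Eng+Flk1- and -0.04 ± 1.64 for Eng-Flk1- (SD, n = 3), while Sdhd, the other anchor, ran from 0.50 to 4.13 within Eng-Flk1- alone. Ndufa7, an accessory subunit, averaged 2.62 ± 0.26, 2.27 ± 0.25, 2.70 ± 0.34 and 2.22 ± 1.08 in the same order of fractions, and Uqcrh, the hinge protein of complex III, 3.83 ± 0.62, 4.35 ± 0.57, 3.78 ± 0.87 and 3.73 ± 2.65. Cox6c averaged 2.46 ± 0.66 for Eng+Flk1+, 2.79 ± 0.48 for Eng-Flk1+, 2.75 ± 0.46 for Eng+Flk1- and 2.77 ± 0.34 for Eng-Flk1- (SD, n = 3). Atp5j2, the f subunit of ATP synthase, averaged 5.55 ± 0.58, 6.05 ± 0.38, 5.78 ± 0.16 and 6.13 ± 0.53 in the same order of fractions. Another probe of Ndufa7 gave folds against Eng-Flk1- of 1.18 for Eng+Flk1+, 0.59 for Eng-Flk1+ and 1.35 for Eng+Flk1-. Another probe of Atp5j2 gave 1.03 for Eng+Flk1+ against Eng-Flk1+, where the probe used gave -0.50. Both other probes were well above background on all 12 arrays. Over all tested members, 24 had fraction means within a range of 1 and 23 had a range over 2 on the log2 scale.

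Several probes of a gene were compared by the sign of their fold. Of the 18 second probes well above background on all 12 arrays, 14 had a fold of the same sign as the probe used in Eng+Flk1+ against Eng-Flk1+ and 17 for Eng+Flk1+ against Eng+Flk1-. In comparisons with Eng-Flk1- the count was 12 for Eng+Flk1+, 10 for Eng-Flk1+ and 10 for Eng+Flk1-.

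Other genes of the same pathway were read from lists written from textbook knowledge. Of 26 assembly factors tested, 2 rose in Eng+Flk1+, 2 for Eng-Flk1+ and 1 for Eng+Flk1-, each against Eng-Flk1-, where 1.97%, 1.64% and 1.23% of all genes rose, and none fell in any comparison. In Eng+Flk1+, their median fold was 0.01 against Eng-Flk1+ and -0.27 against Eng+Flk1-. Acad9, which helps assemble complex I, had folds of 4.22 ± 0.92 (limma adjusted p = 0.0420), 4.90 ± 0.92 (0.0246) and 5.15 ± 0.92 (0.0237) in the 3 fractions. Nubpl, which delivers iron-sulfur clusters to complex I, was not well above background on any Eng-Flk1- array. The dimmest probe well above background on each Eng-Flk1- array was taken as its floor there. On the linear scale, Nubpl was then at least 24.6-fold higher in Eng+Flk1+ (limma adjusted p = 0.0108, measured means -0.95 and -7.26). It was at least 19.1-fold higher in Eng-Flk1+ (0.0174, measured means -1.31 and -7.26). In Eng+Flk1- Nubpl was dim as well, at least 1.91-fold higher than in Eng-Flk1- (measured means -4.63 and -7.26), and it was not called there. Atpaf1, an assembly factor of ATP synthase, had -3.43 ± 1.20 in both Eng+Flk1+ (0.201) and Eng-Flk1+ (0.193).

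Of 13 regulators of mitochondrial gene expression, whose median fold in Eng+Flk1+ was 0.24 against Eng-Flk1+ and -0.09 against Eng+Flk1-, 1 was called in 1 comparison, Yy1, with a fold of 3.52 ± 0.73 for Eng+Flk1+ against Eng-Flk1- (Benjamini-Hochberg adjusted p of limma = 0.0334), 2.86 ± 0.73 for Eng-Flk1+ (0.0834) and 2.62 ± 0.73 for Eng+Flk1- (0.125). Tfb2m, a factor of mitochondrial transcription, had 2.16 ± 0.92 (0.294), 3.58 ± 0.92 (0.0859) and 3.93 ± 0.92 (0.0714) in these comparisons, with 2 of the 3 Eng-Flk1- arrays well above background. Of 14 genes of the citric acid cycle none was called. Mdh2, mitochondrial malate dehydrogenase, came nearest, at 2.29 ± 0.52 for Eng+Flk1- against Eng-Flk1- (0.0630). The median of the cycle genes was -0.32 for Eng+Flk1+ against Eng-Flk1+ and -0.61 for Eng+Flk1+ against Eng+Flk1-, beside -0.47 and -0.51 for the members.

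Of 10 electron carriers and subunits with other names, such as Cyc1, Ndufab1 and Etfdh, none was called. Their medians were -0.35 for Eng+Flk1+ against Eng-Flk1+, -0.50 for Eng+Flk1+ against Eng+Flk1-, 0.94 for Eng+Flk1- against Eng-Flk1- and 0.74 for Eng-Flk1+ against Eng-Flk1-. Etfdh, which feeds electrons of fatty acid oxidation to ubiquinone, had a fold of 4.27 ± 1.28 for Eng+Flk1- against Eng-Flk1- (Benjamini-Hochberg adjusted p of limma = 0.158), with 1 of the 3 Eng-Flk1- arrays well above background.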

How the data were processed

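RNA of 12 sorted samples was measured on 1-colour Agilent arrays with 1639 control and 43379 other spots each. Per the file headers, the scanner files hold intensity per spot, read with Agilent Feature Extraction 10.5.1.1 on build mm8: a processed, background-subtracted signal, and the mean and background signals. Spots also carry deposited flags, 0 or 1, for signal well above background, saturation and outliers. The authors' deposited value table holds a ratio, which matched the processed signal over the median of its array; its direction and scale follow from that match. Its 12 flag columns were not used. The labels' design text names GeneSpring GX; how it was set is not given here.

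Control and outlier spots were left out, and no spot was saturated. The log2 of the processed signal minus the 75th percentile of its array was averaged over spots of a probe, and the brightest probe on average stood for its gene. Of 41174 probes, 24375 were named by accession, 4647 through another probe of the same gene name, 2619 by symbol and 1513 by synonym through RefSeq (GRCm38.p6, used for names), and 8020 kept the file's name. The members are matched on the file's name and cover 110 probes. The filter kept 22720 genes with a signal well above background on every array of some fraction, and 17580 of these passed on all 12 arrays. In 165 of them, 1 a member, 184 values were missing after outlier flags, and the fit used the arrays left. The number of arrays limits the precision.

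One model over the 4 fractions was fitted with limma 3.58.1 (R 4.3.3), with Benjamini-Hochberg adjustment over all genes. It assumes 1 spread per gene, so errors may be understated for Eng-Flk1-, whose arrays spread most, and overstated elsewhere. The fit was tested on simulated data with 1 spread per gene and no slide effect, which cannot show how the wider spread of Eng-Flk1- acts. Promoters and figures used Python 3.11.15, pandas 2.3.3, numpy 2.4.6 and matplotlib 3.10.9. Named genes are, per complex, the 4 lowest F test p-values and the steadiest member, all called members, the complex IV and c subunit isoforms, the complex I core and up to 3 genes of each other list; others are said to be so. One member that this rule names is not reported here. Members, lists and rules were chosen with earlier results of these data known. Alternatives were background correction, scaling, the authors' table, filters, probe choice, slide, replicate number, array weights, fractions in the fit and leaving out each array.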

Additional observations from a re-analysis of the deposited data

Results flagged for a closer look

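The difference between the Endoglin comparison among Flk1 positive cells and that among Flk1 negative cells passed the test for 1 subunit gene. Ndufv2 had an interaction of -6.96 on the log2 scale (limma adjusted p = 0.0236), from a fold of -1.18 in Eng+Flk1+ against Eng-Flk1+ and of 5.78 in Eng+Flk1- against Eng-Flk1-. The value was -7.84 with slide as a block (0.205) and ran from -7.71 to -6.21 when each array was left out in turn (0.00735 to 0.0700).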

How the results depend on the processing

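Of 320 comparisons of a main result with an alternative setting, 251 stayed within the limits, which were 1.5 times for a count of called members and 1 SD of the score between replicates for a median fold, and 69 moved. Of 138 medians under an alternative, 7 changed sign: in the authors' table those of Eng-Flk1+ against Eng-Flk1-, Eng+Flk1+ against Eng-Flk1- and Eng-Flk1+ against Eng+Flk1- (-0.0022), that of Eng+Flk1+ against Eng-Flk1- without replicate 1 of Eng+Flk1+ (-0.041), and that of Eng-Flk1+ against Eng+Flk1- without replicate 1 or 3 of Eng-Flk1+ (-0.18 and -0.041) or with slide as a random block (-0.083). Members called in Eng+Flk1- against Eng-Flk1- were 4 in the main setting but 2 with normexp, quantile normalization, the authors' table or genes above background on all 12 arrays, 1 with array weights, 0 with slide as a block and 14 with slide as a random block, which called 12.5% of all genes (its estimated correlation was -0.194). In Eng+Flk1+ against Eng-Flk1-, 4 became 2 with normexp, quantile normalization, the authors' table, the stricter filter or no filter on dim probes, 1 with array weights, 0 with slide as a block and 9 as a random block. In Eng-Flk1+ against Eng-Flk1-, 3 became 1 with array weights and 0 with slide as a block or within slide 1. The F test gave 1 with array weights, 0 with slide as a block and 9 as a random block, and the interaction 0 with slide as a block. The cause was not tested. Apart from the 12.5%, the shares of all genes called under these settings are not given here, so the counts do not set the members apart from other genes.

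The median fold in Eng+Flk1- against Eng-Flk1- was 0.45 with normexp, 0.91 with quantile normalization, 0.14 in the authors' table, 0.43 above background on all 12 arrays, 0.91 with the mean of all probes, 0.86 with slide as a block and 0.50 as a random block. In Eng-Flk1+ against Eng-Flk1- it was 0.82 with quantile normalization, -0.10 in the authors' table and 1.02 with slide as a block or within slide 1. In Eng+Flk1+ against Eng-Flk1- it was 0.45 with quantile normalization, -0.47 in the authors' table and 0.40 with slide as a block, and in Eng+Flk1+ against Eng+Flk1- -0.23 with slide as a block or within slide 3.

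The counts that follow are also without the share of all genes called in the same fit, which may have moved with them. Leaving out each array in turn gave 2 to 7 members by the F test, 2 to 10 in Eng+Flk1- against Eng-Flk1-, 2 to 7 in Eng-Flk1+ against Eng-Flk1-, 2 to 6 in Eng+Flk1+ against Eng-Flk1- and 0 to 3 in the interaction. The highest counts of the first 3 came without replicate 2 of Eng-Flk1-, which also gave 3 in the interaction, as did leaving out replicate 1 of Eng-Flk1- (4 by the F test and 5 in Eng-Flk1+ against Eng-Flk1-). The interaction was at 0 without replicate 1 or 3 of Eng-Flk1+ or replicate 1 or 2 of Eng+Flk1-. Leaving out replicate 3 of Eng-Flk1-, replicate 3 of Eng-Flk1+ or any replicate of Eng+Flk1- gave 2 in both Eng+Flk1- and Eng+Flk1+ against Eng-Flk1-, and leaving out replicate 1 of Eng-Flk1+ or replicate 1 or 3 of Eng+Flk1+ gave 2 in Eng+Flk1+ against Eng-Flk1-. Without replicate 1 of Eng+Flk1+ the interaction gave 2. Ndufv2 kept its 3 calls against Eng-Flk1- except with slide as a block or within slide 1, and Ndufa3 lost its calls there and with array weights. The medians ran from 0.55 to 0.74 in Eng+Flk1- against Eng-Flk1- and from -0.65 to -0.18 in Eng+Flk1+ against Eng+Flk1-. Replicate numbers showed little pairing over all fractions: 1 of 18 correlations of same-numbered deviations was over 0.1 (-0.091 to 0.13), and 7 of 18 were the highest of their sample. Between Eng-Flk1+ and Eng+Flk1+, however, every same-numbered correlation was the highest (0.063, 0.13 and 0.05, against at most 0.045, -0.062 and 0.011). A pairing of these 2 fractions was not tested further, and no member was called between them under any alternative. With the replicate number as a block, 2 members were called in Eng+Flk1- against Eng-Flk1- (median 0.49), 2 in Eng+Flk1+ against Eng-Flk1- and 1, which was not Ndufv2, in the interaction. Spots near background limit the folds of the 11 members that were dim on some array.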
